A study of Mus musculus with 8 samples.

Results

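The genes described here were ATF4, its target genes and the aminoacyl-tRNA synthetases of the cytosol in mouse keratinocytes (KCs) grown in culture. The members were taken from a list of 36 gene names, matched to the gene names of the deposited tables, with a final 1 allowed for a synthetase. Of these, 35 genes were found among the 41457 genes listed per sample, namely 16 for ATF4 and its targets and 19 synthetases, and 1 listed gene was not analysed here. The study compared KCs after 1 week and after 3 weeks of cultivation to follow gene expression in culture over time. The cells came from the tail skin of adult C57BL/6 wildtype mice, were untreated, and grew in serum-free KC medium with 0.06 mM Ca++ in both groups. Each group had 4 samples, and the design text counts 4 independent experiments. In the deposited names, 3 preparation numbers occur in both groups, and the groups were compared without pairing unless a block is named. The groups were cultures, passaged when nearly confluent, and not sorted cells.

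ATF4 is a transcription factor of the integrated stress response. Kinases that sense a lack of amino acids, misfolded proteins in the endoplasmic reticulum (ER), lack of heme or double-stranded RNA phosphorylate the translation factor eIF2, which lowers translation of most mRNAs but raises that of Atf4, and growth signals through mTORC1 raise ATF4 as well. ATF4 then activates genes for the synthesis and uptake of amino acids, feedback regulators such as Trib3 and Ppp1r15a, and many aminoacyl-tRNA synthetases, the enzymes that load each tRNA with its amino acid.

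Between 13896807 and 20026084 reads per sample lay on exons. Of the keratinocyte markers, Krt14 was the highest at a mean of 6112 RPKM over all samples and Krt15 the lowest at 1.14 RPKM (reads on exons, scaled for exon length and for the mapped reads per sample). The 8 keratinocyte markers summed to 14415, 12631, 13588 and 14735 RPKM in the 1-week replicates and 7569, 8768, 8101 and 8964 RPKM in the 3-week replicates, a ratio of means of 0.603, and the part of this difference in the results on the members was not tested. Most of the sum was Krt5 and Krt14, with means of 6170 and 6941 RPKM at 1 week and 2207 and 5283 RPKM at 3 weeks, and over the 8 markers the median log2 fold change was −0.09, with 4 fitted below 0. Krt5, a keratin of basal cells, was called lower, with a log2 fold change of −1.32 ± 0.18 (SE), and Krt14, its partner, was not called (−0.23 ± 0.20 (SE)). Of the 8 keratinocyte markers, 2 were called lower and 1 higher at 3 weeks, near the shares of all genes tested (17.05% and 15.7%); 1 was called lower without 1 week replicate 3 or 4 or 3 weeks replicate 2, 3 or 4 and with a block for replicate or preparation number, and 2 were called higher without 3 weeks replicate 3 and with the preparation block. Summed over each list, the 7 fibroblast markers stayed between 2.71 and 6.32 RPKM, the 6 immune markers between 1.24 and 4.10 RPKM with 1 of them at 0 reads in all samples, and the 4 endothelial markers between 0.252 and 0.557 RPKM in the 8 samples. One library stood apart in its RNA composition: reads from mitochondrial genes made up 13.3% of exon reads in 3 weeks replicate 3, against 3.73% to 4.43% in the other 3-week samples and 2.19% to 3.66% at 1 week. Levels below are RPKM, whereas fold changes were fitted to read counts scaled by TMM. The median log2 ratio of mean RPKM over all genes tested was −0.13, against a median fitted log2 fold change of 0.03.

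Most members had lower mRNA levels at 3 weeks. By edgeR's quasi-likelihood test with Benjamini-Hochberg adjustment at 0.05, 27 of the 35 members were called lower, against 17.05% of the 12590 genes tested, and 1 member, Nupr1, was called higher, against 15.7%. All 35 members passed the filter on low counts. Their median log2 fold change was −0.90, beside 0.03 for all genes tested, and 34 of the 35 had a fitted value below 0. The RPKM of every 3-week sample lay below every 1-week sample in 30 members (26.2% of all genes tested) and above in 1 member (10.8%). On counts scaled by TMM, the 3-week samples lay below in 27 members, against 18.5% of all genes tested. In these bulk cultures, fewer cells of a type and less RNA per cell cannot be told apart. Without 3 weeks replicate 3, the library with the high mitochondrial share, 28 members were called lower, and without 3 weeks replicate 4, which was low for many members, 26. With the test run on RPKM by limma instead, on log2(RPKM + 0.1), 70.2% of all calls were lower at 3 weeks, against 52.0% by edgeR, and 30 of the members were called lower.

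**Figure D1:**
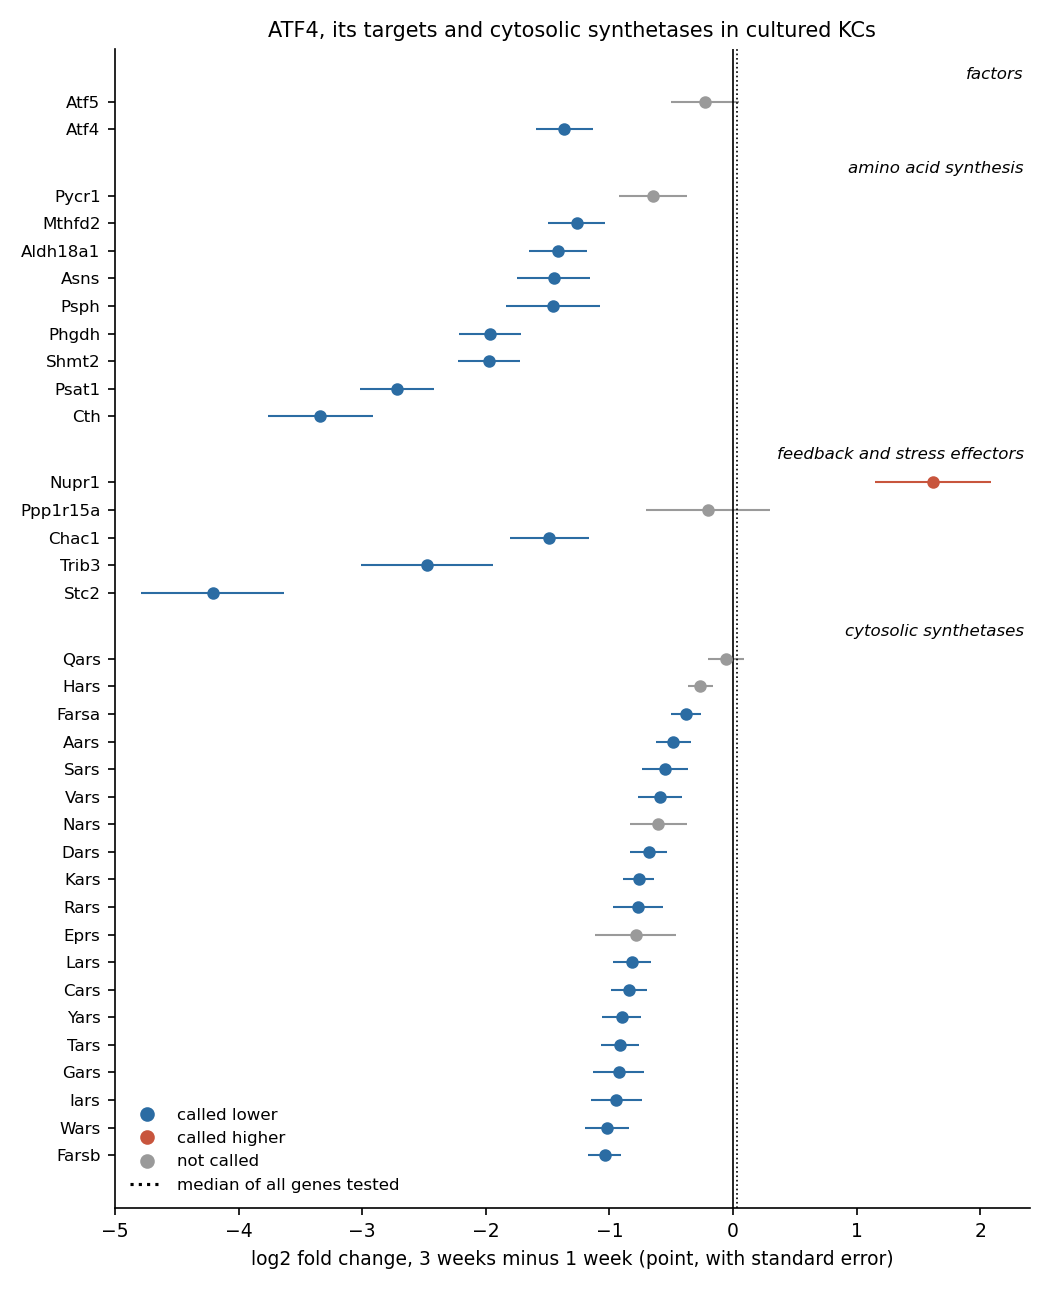
Log2 fold change of each member, 3 weeks minus 1 week, as a point with its standard error, grouped by role. Blue points were called lower, the red point (Nupr1) higher, grey points were not called, and the dotted line marks the median of all genes tested at 0.03.

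**Figure D2:**
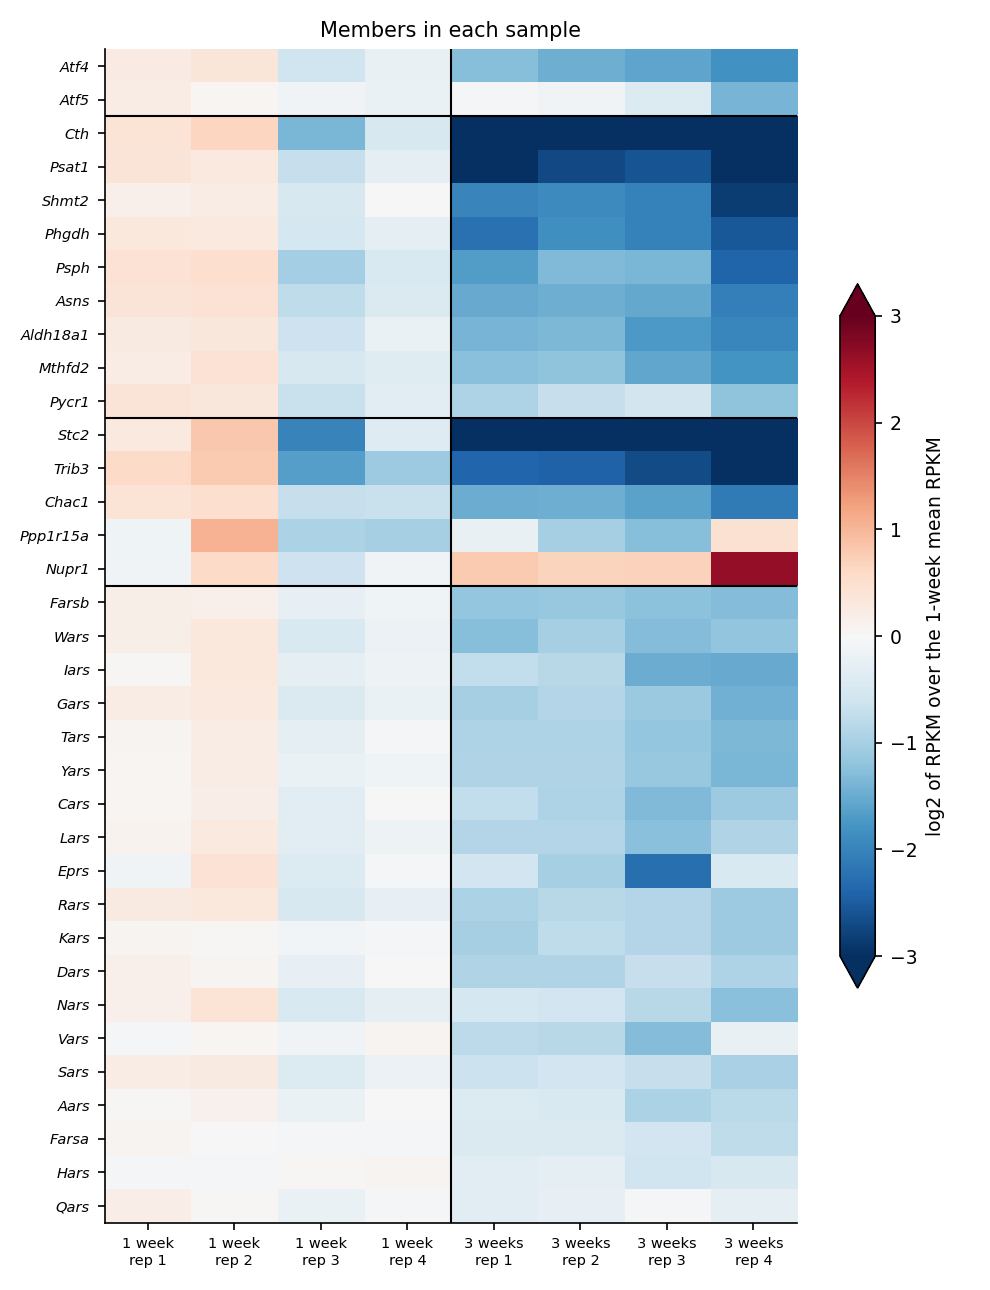
Log2 of the RPKM of each member in each sample over its mean RPKM at 1 week, 4 samples per group, with colours ending at −3 and 3. In the 1-week group replicates 1 and 2 are mostly redder than replicates 3 and 4, and the 3-week samples are blue for most members.

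Atf4 itself had fallen at 3 weeks. It stood at 228, 247, 126 and 163 RPKM in 1 week replicates 1 to 4 and at 78.1, 68.9, 63.5 and 54.1 RPKM in 3 weeks replicates 1 to 4. The groups did not overlap, and at 1 week replicates 1 and 2 were the high samples. The log2 fold change was −1.36 ± 0.23 (SE), with an adjusted p of 0.00254 by edgeR's quasi-likelihood test with Benjamini-Hochberg adjustment. Atf5 encodes a related factor of the same family that is also regulated by translation. It was measured at 98.3, 88.3, 78.0 and 73.5 RPKM at 1 week and 82.3, 79.1, 63.9 and 32.0 RPKM at 3 weeks, in the order of the replicates. The groups overlapped, and 3 weeks replicate 4 was the lowest of all 8 samples. With a log2 fold change of −0.23 ± 0.27 (SE) and an adjusted p of 0.564 by edgeR's quasi-likelihood test with Benjamini-Hochberg adjustment, Atf5 was not called; without 3 weeks replicate 4 the fitted value was 0.01.

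The serine pathway makes serine from a glycolytic intermediate in successive steps by the enzymes Phgdh, Psat1 and Psph, and all of them fell. Phgdh, which starts the pathway, gave 189.7, 186, 104 and 125 RPKM at 1 week and 32.2, 42.3, 37.1 and 25.9 RPKM at 3 weeks. Every 3-week sample lay below every 1-week sample. For Phgdh the log2 fold change was −1.97 ± 0.25 (SE), adjusted p 0.000734 by edgeR's quasi-likelihood test with Benjamini-Hochberg adjustment. Only 32.4% of its exon reads mapped to a single place, so its level is less certain. The fit on such reads gave a log2 fold change of −2.01. Psat1, the transaminase of the second step, was measured at 131, 123, 61.6 and 83.2 RPKM and, 3 weeks into culture, at 12.1, 15.2, 16.5 and 9.71 RPKM. The lowest 1-week sample was still well above the highest 3-week sample. Psat1 fell by a log2 fold change of −2.72 ± 0.30 (SE) (adjusted p 0.000448, edgeR's quasi-likelihood test with Benjamini-Hochberg adjustment). Psph, the phosphatase that releases serine, had 45.1, 47.0, 16.5 and 24.3 RPKM at 1 week and 10.4, 13.2, 12.9 and 6.27 RPKM at 3 weeks. Its groups did not overlap, but 1 week replicate 3 came close to the highest 3-week samples. The fit for Psph gave −1.46 ± 0.38 (SE) with an adjusted p of 0.0173 by edgeR's quasi-likelihood test with Benjamini-Hochberg adjustment.

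Mitochondrial one-carbon metabolism takes the carbon unit from serine, and its enzymes Shmt2 and Mthfd2 fell as well. Shmt2, which splits serine into glycine and the one-carbon unit, ran at 104, 109, 67.0 and 92.3 RPKM in the 1-week replicates and at 23.5, 24.7, 22.9 and 12.9 RPKM in the 3-week replicates. The groups were far apart, with 3 weeks replicate 4 below the other samples. Its log2 fold change was −1.97 ± 0.25 (SE), with an adjusted p of 0.000717 by edgeR's quasi-likelihood test with Benjamini-Hochberg adjustment. Mthfd2, the dehydrogenase that oxidizes the folate-bound unit, was found at 69.5, 80.5, 42.7 and 46.4 RPKM at 1 week and 25.1, 25.9, 20.4 and 17.3 RPKM at 3 weeks. No 3-week sample reached the lowest 1-week sample. Mthfd2 changed by −1.26 ± 0.23 (SE) on the log2 scale (adjusted p 0.00370 by edgeR's quasi-likelihood test with Benjamini-Hochberg adjustment).

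The core sequence TGATGNAA, read on both strands, was searched for in the 300 bases around each start (250 before, 50 after) as the core of the C/EBP-ATF response element. Of the 35 members, 27 matched the RefSeq promoter table (build GRCm38.p6), with 29 windows; Cth, Cars, Hars, Lars, Nars, Rars, Vars and Wars had no match. The motif was held by 10 of these 29 windows (34.5%), against 1304 of all 32851 windows (3.97%). The members were listed as ATF4 targets and synthetases, so the first share describes that choice of genes. Neither share draws on the reads of these cultures. It stood in the windows of 8 of the 21 matched members called lower, in that of Nupr1, the member called higher, and in 1 of the 5 that were not called. A match describes the letters of the window and is not a site of binding. The windows of the 8 called members with a match and the largest fold changes are shown where each group of genes is described, with the motif in capitals.

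Asns, Aldh18a1, Pycr1 and Cth make asparagine, proline and cysteine. Asns, asparagine synthetase and a standard ATF4 target, stood at 219, 225, 98.6 and 122 RPKM at 1 week against 58.3, 60.4, 57.1 and 40.2 RPKM at 3 weeks. Here too the groups did not overlap. The log2 fold change of Asns was −1.45 ± 0.30 (SE) and its adjusted p 0.00593 by edgeR's quasi-likelihood test with Benjamini-Hochberg adjustment. Its promoter window (chr6:7693160-7693459, minus strand) is shown because it holds the motif in the forward sense, from position −23 relative to the start.
Asns: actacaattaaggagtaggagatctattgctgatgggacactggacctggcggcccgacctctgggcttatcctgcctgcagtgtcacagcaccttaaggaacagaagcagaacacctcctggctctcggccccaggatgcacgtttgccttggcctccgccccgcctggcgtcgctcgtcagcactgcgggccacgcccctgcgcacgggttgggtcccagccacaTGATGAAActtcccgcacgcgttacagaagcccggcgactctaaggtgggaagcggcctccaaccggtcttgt

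Cth, the cystathionine gamma-lyase that forms cysteine in the transsulfuration pathway, had the largest fall among the amino acid enzymes. Its level was 66.4, 79.0, 19.5 and 36.1 RPKM at 1 week and 3.42, 5.49, 4.49 and 4.32 RPKM at 3 weeks. The 1-week samples were widely spread and the 3-week samples were close together and below all of them. Cth fell by a log2 fold change of −3.34 ± 0.42 (SE), adjusted p 0.000717 by edgeR's quasi-likelihood test with Benjamini-Hochberg adjustment. Aldh18a1, which makes the proline precursor from glutamate, went from 70.5, 75.1, 38.6 and 51.3 RPKM to 22.4, 23.2, 17.96 and 15.2 RPKM, again with no overlap. A log2 fold change of −1.42 ± 0.23 (SE) was fitted, with an adjusted p of 0.00230 by edgeR's quasi-likelihood test with Benjamini-Hochberg adjustment. Pycr1, the reductase that completes proline, was the 1 enzyme of the 9 that was not called, with 13.1, 12.7, 6.36 and 8.01 RPKM at 1 week and 5.26, 6.25, 6.87 and 4.34 RPKM at 3 weeks. Its groups overlapped, since 3 weeks replicate 3 lay above 1 week replicate 3. By edgeR's quasi-likelihood test with Benjamini-Hochberg adjustment, Pycr1 had a log2 fold change of −0.65 ± 0.28 (SE) and an adjusted p of 0.102, and it passed the threshold without 1 week replicate 3 (log2 fold change −0.82) and without 3 weeks replicate 3 (−0.83).

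Among the 5 feedback and stress genes, 3 were called lower and 1 higher, against 17.05% and 15.7% of all genes tested. The share called higher was thus near that of all genes tested. Trib3 encodes a pseudokinase that restrains ATF4 and AKT signalling. Trib3 had 161, 188, 34.6 and 51.2 RPKM at 1 week and 21.0, 20.1, 17.05 and 11.5 RPKM at 3 weeks. 1 week replicates 1 and 2 were far above replicates 3 and 4, and all 3-week samples lay below these. The change was −2.48 ± 0.53 (SE) on the log2 scale, adjusted p 0.00758 by edgeR's quasi-likelihood test with Benjamini-Hochberg adjustment. Chac1 degrades glutathione. It had 76.5, 82.1, 35.9 and 36.4 RPKM at 1 week and 20.4, 20.9, 18.9 and 13.3 RPKM at 3 weeks, and the groups did not overlap. Chac1 changed by −1.49 ± 0.32 (SE) (log2 fold change), with an adjusted p of 0.00732 by edgeR's quasi-likelihood test with Benjamini-Hochberg adjustment. Stc2, a secreted glycoprotein, had the largest fitted change of the members by edgeR, but by limma on log2(RPKM + 1) its log2 fold change was −2.25, against −3.06 for Cth and −2.77 for Psat1. Stc2 was found with an RPKM of 7.50, 10.8, 1.52 and 4.69 at 1 week and 0.321, 0.353, 0.153 and 0.368 at 3 weeks, where as few as 13 reads lay on the gene in a sample. All 3-week samples lay below the lowest 1-week sample, replicate 3. The log2 fold change of Stc2 was −4.21 ± 0.58 (SE), with an adjusted p of 0.000985 by edgeR's quasi-likelihood test with Benjamini-Hochberg adjustment.

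Nupr1, a small nuclear protein induced by stress, was the 1 member called higher. It was at 13.2, 21.1, 9.23 and 13.1 RPKM at 1 week and at 24.2, 22.4, 22.9 and 88.1 RPKM at 3 weeks. 3 weeks replicate 4 was far above the others, and the remaining 3-week samples lay just above the highest 1-week sample. The log2 fold change was 1.62 ± 0.47 (SE), adjusted p 0.0284 by edgeR's quasi-likelihood test with Benjamini-Hochberg adjustment. Without 3 weeks replicate 4 it was 0.90, with an adjusted p of 0.0209 by the same edgeR quasi-likelihood test with Benjamini-Hochberg adjustment (0.00206 to 0.0775 over all 17 alternatives, other tools included). The call was lost without 1 week replicate 1, 3 or 4, with log2 fold changes of 1.59, 1.45 and 1.58, by limma on log2(RPKM + 0.1), with 1.25, and on log2(RPKM + 1), with 1.20, and with the replicate number as a block, with 1.41. Ppp1r15a, also known as GADD34, recruits the phosphatase that removes the phosphate from eIF2. It showed 20.5, 46.0, 11.6 and 11.2 RPKM at 1 week and 19.2, 11.2, 9.16 and 30.6 RPKM at 3 weeks, with overlapping groups. By edgeR's quasi-likelihood test with Benjamini-Hochberg adjustment it was not called (log2 fold change −0.20 ± 0.50 (SE), adjusted p 0.787), and the fitted value was 0.40 without 1 week replicate 2.

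The promoter windows of Trib3 (chr2:152344011-152344310, minus strand), Nupr1 (chr7:126625421-126625720, minus strand) and Chac1 (chr2:119350992-119351291, plus strand) each hold the motif once, on the reverse strand, from position 15, −110 and −193. They are shown since they belong to the called members of this group with a match, of which Nupr1 moved opposite to the other genes.
Trib3: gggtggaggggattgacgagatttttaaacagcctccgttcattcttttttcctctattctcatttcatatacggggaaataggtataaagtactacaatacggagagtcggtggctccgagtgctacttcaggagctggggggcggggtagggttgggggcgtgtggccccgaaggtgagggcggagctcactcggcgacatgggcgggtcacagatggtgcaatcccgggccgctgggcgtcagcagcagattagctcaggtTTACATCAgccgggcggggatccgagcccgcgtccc
Nupr1: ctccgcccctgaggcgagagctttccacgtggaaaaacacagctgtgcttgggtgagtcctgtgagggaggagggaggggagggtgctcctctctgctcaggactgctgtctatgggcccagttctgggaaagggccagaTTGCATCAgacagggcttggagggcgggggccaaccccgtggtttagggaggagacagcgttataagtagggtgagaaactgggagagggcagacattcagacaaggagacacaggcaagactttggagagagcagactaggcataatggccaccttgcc
Chac1: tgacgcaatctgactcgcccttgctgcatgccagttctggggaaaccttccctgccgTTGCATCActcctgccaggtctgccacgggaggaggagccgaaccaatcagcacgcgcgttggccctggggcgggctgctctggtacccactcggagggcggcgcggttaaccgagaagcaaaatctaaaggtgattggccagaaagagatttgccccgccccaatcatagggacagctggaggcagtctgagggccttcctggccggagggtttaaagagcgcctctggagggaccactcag

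**Figure D3:**
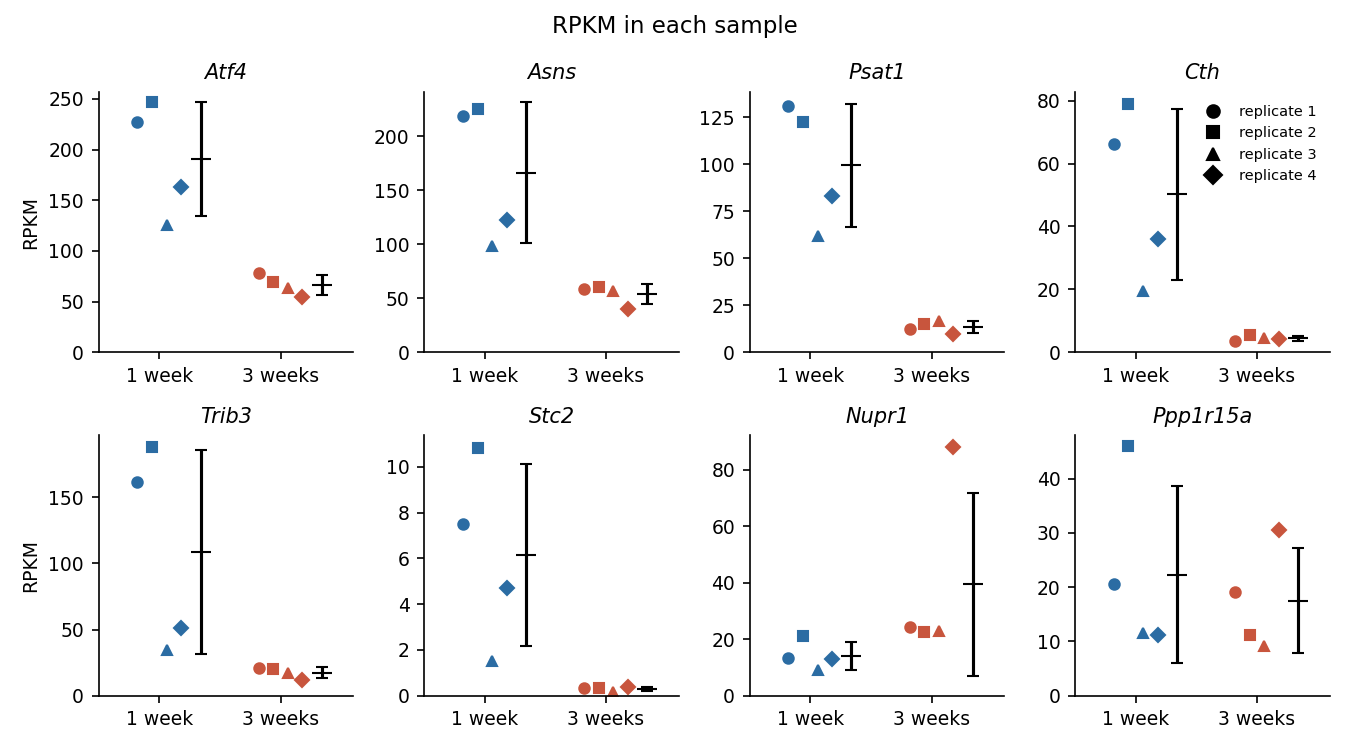
RPKM of 8 members in each sample (axes from 0), with 1 week in blue and 3 weeks in red, 1 symbol per replicate, and the mean and SD of 4 samples beside each group. Nupr1 is higher at 3 weeks, most of all in replicate 4 at 88.1 RPKM, Ppp1r15a overlaps, and the other 6 genes lie lower at 3 weeks.

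Most synthetase members were lower at 3 weeks. Of the 19 synthetase members, 15 were called lower and 0 higher by edgeR, against 17.05% and 15.7% of all genes tested, and the median log2 fold change was −0.77. By DESeq2 17 were called lower and 0 higher, where 2458 of the 12590 genes tested were called lower, and by limma on RPKM also 17 and 0, where 3089 genes (0.1 added) or 3090 genes (1 added) were. All 19 had a fitted value below 0, from −1.04 for Farsb to −0.06 for Qars. With every fitted value below 0, none could be higher at unadjusted p under 0.05. The mean RPKM of single synthetases ran from 15.8 to 262 at 1 week and from 8.31 to 154 at 3 weeks. Farsb, the beta subunit of phenylalanyl-tRNA synthetase, was among those with the largest falls. Its level was 54.9, 54.0, 41.2 and 44.9 RPKM at 1 week and 21.7, 22.1, 20.9 and 19.9 RPKM at 3 weeks, with tight 3-week samples and no overlap. The log2 fold change was −1.04 ± 0.13 (SE), adjusted p 0.000779 by edgeR's quasi-likelihood test with Benjamini-Hochberg adjustment. Wars, which charges tryptophan, was at 49.3, 54.3, 31.4 and 38.2 RPKM and then at 17.7, 21.8, 17.6 and 19.2 RPKM, all 3-week samples lower. For Wars a log2 fold change of −1.02 ± 0.18 (SE) was found, with an adjusted p of 0.00305 by edgeR's quasi-likelihood test with Benjamini-Hochberg adjustment. Iars, for isoleucine, had 57.8, 70.2, 46.6 and 50.3 RPKM at 1 week and 33.5, 31.4, 20.1 and 19.7 RPKM at 3 weeks, where replicates 3 and 4 were the lowest. Iars changed by −0.94 ± 0.21 (SE), with an adjusted p of 0.00822 by edgeR's quasi-likelihood test with Benjamini-Hochberg adjustment.

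Nars, for asparagine, was the most abundant synthetase. It was measured at 292, 346, 192 and 218 RPKM at 1 week and at 183, 175, 147 and 110.1 RPKM at 3 weeks. Its RPKM did not overlap between the groups, but on TMM-scaled counts they did, as for Eprs and Sars. Its log2 fold change of −0.60 ± 0.23 (SE) had an adjusted p of 0.0763 by edgeR's quasi-likelihood test with Benjamini-Hochberg adjustment, so Nars was not called. The 12 other synthetases called lower (Aars, Cars, Dars, Farsa, Gars, Kars, Lars, Rars, Sars, Tars, Vars and Yars, which charge alanine, cysteine, aspartate, phenylalanine, glycine, lysine, leucine, arginine, serine, threonine, valine and tyrosine) had log2 fold changes from −0.93 to −0.38, and adjusted p from 0.00231 to 0.0484 by edgeR's quasi-likelihood test with Benjamini-Hochberg adjustment. Besides Nars, 3 were not called: Eprs, the fused glutamyl- and prolyl-tRNA synthetase, Hars, for histidine, and Qars, for glutamine, with log2 fold changes of −0.79 ± 0.33 (SE), −0.27 ± 0.10 (SE) and −0.06 ± 0.15 (SE). Eprs had 10.6, 7.86, 3.30 and 11.5 RPKM at 3 weeks, with replicate 3 far below the other samples, and 14.7, 21.5, 11.9 and 15.1 RPKM at 1 week. These uncalled genes were named after their values were seen.

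The calls of 4 synthetases depended on single libraries. With each sample left out in turn, log2 fold changes ran from −0.55 to −0.41 for Aars, −0.44 to −0.29 for Farsa, −0.67 to −0.46 for Sars and −0.78 to −0.50 for Vars, all below 0. The call of Aars was lost without 1 week replicate 1, 2 or 4 or 3 weeks replicate 2, that of Farsa without any 1-week replicate or 3 weeks replicate 1 or 2, that of Sars without 1 week replicate 1, 2 or 4 or 3 weeks replicate 1, 2 or 4, and that of Vars without any 1-week replicate or 3 weeks replicate 1 or 2. With the preparation number as a block, in the samples of the 3 preparations found at both times, 10 synthetases were called lower, and the calls of these 4 and of Rars (log2 fold change −0.73) were lost. Some exons overlap other genes in the reference annotation, and the use of strand in counting was not stated: 9.47% of the exon bases of Farsb lie on exons of Sgpp2, 7.97% of those of Hars on Hars2 and 10.4% of those of Psph on Cct6a on the opposite strand, and 14.3% of those of Aars on exons of other genes on the same strand. For these genes, reads of both genes cannot be told apart there.

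The promoter windows of Iars (chr13:49681880-49682179), Gars (chr6:55037751-55038050), Tars (chr15:11399609-11399908) and Yars (chr4:129189653-129189952) are on the plus strand apart from Tars, and are shown as those of the called synthetases with a match and the largest falls. The motif starts at position 8, −30, −15 and 4 in this order, on the reverse strand in all but Yars.
Iars: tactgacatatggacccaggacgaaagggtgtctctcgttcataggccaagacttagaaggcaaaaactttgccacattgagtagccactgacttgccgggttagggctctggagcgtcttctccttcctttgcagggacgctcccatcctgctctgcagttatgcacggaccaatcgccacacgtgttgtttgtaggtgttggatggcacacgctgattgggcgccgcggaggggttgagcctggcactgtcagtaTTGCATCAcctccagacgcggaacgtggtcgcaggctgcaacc
Gars: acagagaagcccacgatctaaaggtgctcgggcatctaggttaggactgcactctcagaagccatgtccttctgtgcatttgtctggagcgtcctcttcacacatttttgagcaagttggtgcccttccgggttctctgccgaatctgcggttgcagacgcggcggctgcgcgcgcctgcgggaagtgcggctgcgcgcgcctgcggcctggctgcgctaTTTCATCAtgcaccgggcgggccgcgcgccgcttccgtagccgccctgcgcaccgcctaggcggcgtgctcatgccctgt
Tars: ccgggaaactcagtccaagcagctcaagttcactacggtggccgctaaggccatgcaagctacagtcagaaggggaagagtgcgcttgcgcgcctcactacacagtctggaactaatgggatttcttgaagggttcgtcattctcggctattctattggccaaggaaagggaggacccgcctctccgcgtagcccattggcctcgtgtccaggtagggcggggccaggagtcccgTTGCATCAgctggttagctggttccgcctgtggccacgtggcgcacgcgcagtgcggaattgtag
Yars: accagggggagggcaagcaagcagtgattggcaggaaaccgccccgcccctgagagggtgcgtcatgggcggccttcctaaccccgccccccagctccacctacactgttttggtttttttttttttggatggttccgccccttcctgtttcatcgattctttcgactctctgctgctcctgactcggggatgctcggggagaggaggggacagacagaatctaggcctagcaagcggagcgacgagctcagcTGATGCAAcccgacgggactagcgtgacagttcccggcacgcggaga

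Summed over the 19 members, the synthetases made up 1388, 1502, 997 and 1133 RPKM in 1 week replicates 1 to 4 and 746, 755, 642 and 605 RPKM in 3 weeks replicates 1 to 4. The mean sum was 1255 ± 231 RPKM (SD, n = 4) at 1 week and 687 ± 74.9 RPKM (SD, n = 4) at 3 weeks, a ratio of 0.547, and the groups did not overlap. The sum of the keratinocyte markers had a ratio of 0.603, which rested mostly on Krt5 and Krt14, while their median log2 fold change was −0.09. The 20 genes for mitochondrial synthetases and the related amidotransferase subunits, which charge tRNA in mitochondria and were not members, summed to 130.4, 119.7, 102 and 112 RPKM at 1 week and to 63.5, 71.2, 73.6 and 71.0 RPKM at 3 weeks, a ratio of means of 0.602. The cytosolic sum was thus much larger than the mitochondrial one in each sample, and both were lower at 3 weeks.

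**Figure D4:**
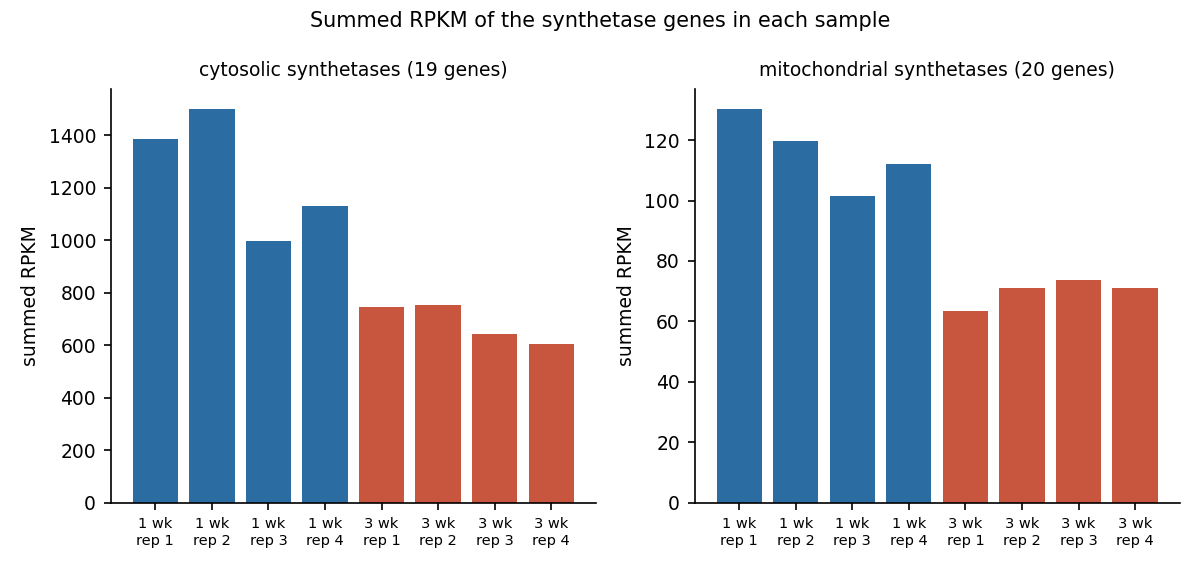
Summed RPKM of the 19 cytosolic synthetase members and of the 20 mitochondrial synthetase genes in each sample, as bars from 0, 1 week in blue and 3 weeks in red. The cytosolic sums lie between 997 and 1502 at 1 week and between 605 and 755 at 3 weeks.

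Within the 1-week group, many members had the same sample as their lowest. On TMM-scaled counts, 1 week replicate 3 was the lowest 1-week sample in 14 of the 16 genes for ATF4 and its targets and in 18 of the 19 synthetases, against 26.2% of all genes tested. Replicates 1 and 2 held the highest 1-week value in all 16 of the former and in 17 of the 19 synthetases, in which replicate 4 was highest in the other 2, against 25.8% and 25.5% of all genes tested for replicates 1 and 2. The median deviation from the 1-week mean was 0.44, 0.48, −0.60 and −0.24 (log2) for ATF4 and its targets in replicates 1 to 4, and 0.12, 0.21, −0.27 and −0.05 for the synthetases. At 3 weeks, replicate 4 was the lowest sample in 12 of the 16 genes and in 13 of the 19 synthetases, against 39.3% of all genes tested. The 5 proliferation markers also differed among the 1-week samples, in another order, with a summed RPKM of 72.0, 67.9, 107 and 131. At 3 weeks that sum was 9.90, 11.02, 8.64 and 5.74 RPKM. All 5 markers were called lower, against 17.05% of all genes tested. Ccna2 had the highest mean over all samples (15.3 RPKM), and Cdk1 the highest mean at 3 weeks (3.42 RPKM). The call of Mki67 was lost without 1 week replicate 1, 3 or 4 or 3 weeks replicate 1 or 2. Melanocyte markers (5 genes, Tyrp1 the most abundant) summed to 4.76, 3.18, 15.4 and 20.9 RPKM at 1 week and 1.26, 5.50, 3.09 and 3.10 RPKM at 3 weeks, with 1 of the 4 tested called lower (0 without 1 week replicate 3 or 4 or 3 weeks replicate 1 or 3, 2 by DESeq2 and 3 with the preparation block). Both sums were higher in 1 week replicates 3 and 4 than in replicates 1 and 2. The part of proliferating cells or melanocytes in the members' values was not tested.

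The other genes of the pathway were read from lists, by the same test, for which 17.05% of all genes tested were called lower and 15.7% higher. Of the 20 mitochondrial synthetase genes, 12 were called lower and 0 higher, with a median log2 fold change of −0.62. Among 5 other cytosolic genes, a synthetase for methionine, a second one for threonine and 3 scaffold proteins, 1 (Mars) was called lower, a share near that of all genes tested, and 0 higher, with a median of −0.43, and 4 were called lower without 3 weeks replicate 3 and 2 without 3 weeks replicate 4. Mars, the methionine synthetase, went from 87.9, 80.2, 60.9 and 69.9 RPKM to 42.1, 42.3, 38.1 and 33.9 RPKM, with a log2 fold change of −0.77 ± 0.15 (SE). Of 21 further ATF4 targets and partners, 20 were tested, of which 12 were called lower and 1 higher, with a median of −1.22, and 0 were called higher without 1 week replicate 2, 3 or 4 or 3 weeks replicate 1. The glycine transporter Slc6a9 and the folate enzyme Aldh1l2 were among those that fell, with log2 fold changes of −2.996 ± 0.45 (SE) and −2.39 ± 0.36 (SE). Only 25.5% of the exon reads of Slc6a9 were unique, and the gene called higher was Ddit4, which restrains mTORC1, named after its value was seen. Enzymes of amino acid metabolism outside the ATF4 set fell in part too: of 12, 10 were tested, 5 were called lower and 1 higher, with a median of −0.43, and 0 were called higher without 1 week replicate 2, 3 or 4 or 3 weeks replicate 1, 2 or 3. Shmt1, the cytosolic counterpart of Shmt2, had a log2 fold change of −1.98 ± 0.21 (SE), and Mthfd1, the cytosolic folate enzyme, one of −1.65 ± 0.14 (SE). The gene called higher there, also named after its value was seen, was Mthfd2l, a relative of Mthfd2. With the replicate block and the preparation block, 9 and 7 mitochondrial synthetase genes, 1 and 3 of the other cytosolic genes, 11 and 11 further ATF4 targets and 4 and 5 of these enzymes were called lower, and Ddit4 and Mthfd2l were not called higher. Of all genes tested, 1558 of 12590 and 1793 of 12649 were called lower in these 2 fits.

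Of the 4 kinases that phosphorylate eIF2, 1 was called higher. Eif2ak3, known as PERK and the sensor in the ER, rose from 2.32, 2.54, 4.01 and 3.05 RPKM at 1 week to 10.4, 9.08, 5.52 and 9.27 RPKM at 3 weeks. No 3-week value reached down to the 1-week values. Its log2 fold change was 1.68 ± 0.22 (SE), with an adjusted p of 0.000748 by edgeR's quasi-likelihood test with Benjamini-Hochberg adjustment. Eif2ak4 (GCN2), the sensor of uncharged tRNA, had 1.32, 1.52, 1.87 and 2.10 RPKM and 2.09, 1.599, 0.988 and 1.798 RPKM, with overlapping groups and a log2 fold change of 0.08 ± 0.22 (SE). Eif2ak1, the heme-regulated kinase, and Eif2ak2 (PKR), the kinase for double-stranded RNA, had log2 fold changes of 0.20 ± 0.16 (SE) and 1.03 ± 0.39 (SE) and were not called. The RPKM of Eif2ak2 was 3.09, 3.99, 4.13 and 4.11 at 1 week, then 6.28, 4.72, 3.08 and 14.4, with 3 weeks replicate 4 far above the rest. Its log2 fold change was 0.46 without that sample, and 1.24, past the threshold, without 3 weeks replicate 3. It also passed by DESeq2 (1.05) and with the preparation block (1.09). Over the 6 genes of this list, which also holds the phosphatase subunits Ppp1r15b and Ppp1r15a, 1 was called lower (Ppp1r15b, −0.62) and 1 higher, shares near the 17.05% and 15.7% of all genes tested, with a median of 0.14. The call of Ppp1r15b was lost with the replicate block and with the preparation block, and 2 genes were called higher without 3 weeks replicate 3, by DESeq2 and with the preparation block. Of the 8 subunits of eIF2 and of its exchange factor eIF2B, 5 were called lower and 0 higher, with a median of −0.54, but 2 were called lower without 1 week replicate 4 and 3 without 1 week replicate 1 or 2 or 3 weeks replicate 1, 2 or 4, 3 by upper-quartile scaling, 2 with the replicate block and 4 with the preparation block. In this list, the mitochondrial synthetases and the other cytosolic genes, 0 were higher at unadjusted p under 0.05 by edgeR, and 0 were called higher by DESeq2 or limma. All 20 mitochondrial synthetase genes were fitted below 0 by edgeR, so for them the first count could only be 0. The 8 ER folding genes of the ATF6 and XBP1 arms of the unfolded protein response gave 5 called lower (3 without 1 week replicate 2 and with the preparation block), 1 higher and a median of −0.63. Hspa5, the main ER chaperone, was at 310.2, 398, 226 and 360.4 RPKM and then at 125, 115, 84.7 and 128 RPKM, while Dnajb9, its co-chaperone, was the gene called higher, with a log2 fold change of 0.74 ± 0.15 (SE).

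**Figure D5:**
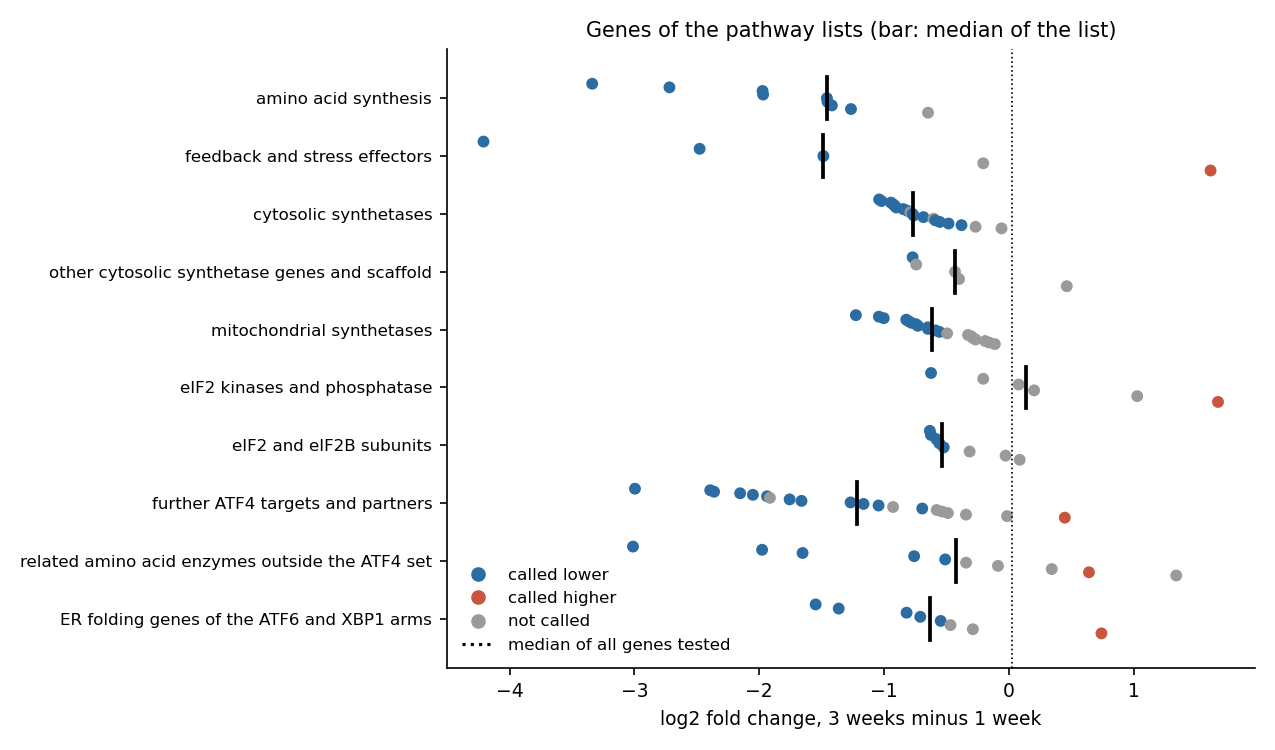
Log2 fold change, 3 weeks minus 1 week, of each tested gene in 10 lists, with blue for called lower, red for called higher and grey for not called. The bar is the median of the list, from −1.49 for the feedback and stress effectors to 0.14 for the eIF2 kinases and phosphatase, and the dotted line is the median of all genes tested.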

How the data were processed

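RNA from 8 KC cultures, 4 after 1 week and 4 after 3 weeks, was analysed from gene tables, 1 per sample, with groups and replicate numbers taken from the labels. The authors sequenced poly(A) libraries and aligned the reads to GRCm38 in the CLC Genomics Workbench at default settings. The deposited counts are whole, unnormalized reads. The authors also deposited RPKM, exon reads scaled to exon length and mapped reads, written with decimal commas and read as numbers. Annotation release and use of strand were not given in the sources used here.

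Exon reads, unique or not, entered edgeR 4.0.16 under R 4.3.3 (filterByExpr, TMM, glmQLFit and glmQLFTest, Benjamini-Hochberg adjustment over all 12590 genes tested, threshold 0.05), with all 8 samples and no pairing. The study describes batches of cells grown for both times; 3 preparation numbers in the deposited names occur at 1 and 3 weeks, and replicate numbers do not follow them throughout. Standard errors were taken from the log2 fold change and the F statistic. These steps were first run on simulated data. There, 87.9% of the genes changed 4-fold and 30.3% of those changed 2-fold were called. A gene that was not called may thus still have changed. Between 13896807 and 20026084 exon reads per sample limit precision for genes with few reads, such as Stc2.

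The members and lists were chosen with earlier results of these data known. Values in every sample were given for Atf4, Atf5, every called amino acid enzyme and effector, the 3 called synthetases with the largest change and the most abundant synthetase; of other lists, the eIF2 kinases and at most 4 called genes with the largest change could be named. Pycr1, Ppp1r15a and Eprs were described as well, chosen after their values were seen. Alternatives were DESeq2 1.42.0, upper-quartile scaling, other filters, unique exon reads, limma 3.58.1 on log2(RPKM + 0.1) or log2(RPKM + 1), blocks for replicate or preparation number, and leaving out each sample. Exon overlaps were read from GENCODE (GRCm38) and promoter windows from RefSeq (GRCm38.p6). Figures were drawn with matplotlib 3.10.9 in Python 3.11.15. Counts of replicates differed by more than sampling noise, with a smallest chi-square of 15.6 per degree of freedom between any 2 replicates of a group.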

Additional observations from a re-analysis of the deposited data

Results flagged for a closer look

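In groups of 4 samples, a sample was looked at again when its gap to the nearest other sample, divided by the range of the group, passed the critical value of Dixon's test. Chance gives about 1 in 20 groups, and 5 of the 70 groups of the members met this. For Nupr1, 3 weeks replicate 4 had 88.1 RPKM against 22.4 to 24.2 RPKM in the other 3-week samples. The same sample was low for Asns, with 40.2 RPKM against 57.1 to 60.4 RPKM, and for Shmt2, with 12.9 RPKM against 22.9 to 24.7 RPKM. 3 weeks replicate 3 was high for Dars, with 18.6 RPKM against 15.8 to 16.0 RPKM, and low for Lars, with 29.1 RPKM against 37.5 to 38.2 RPKM. Without these samples the fitted changes of the 5 genes had the same direction and were called.

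Outside the members, Eif2ak2 had 3.09 RPKM in 1 week replicate 1 against 3.99 to 4.13 RPKM in the other 1-week samples. The share of exon reads from mitochondrial genes was 13.26% in 3 weeks replicate 3 against 3.73% to 4.43% in the other 3-week samples.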

How the results depend on the processing

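Over the 17 alternatives, 22 of the 28 called members passed the threshold under each, among them Atf4, all 8 called amino acid enzymes and Trib3, Chac1 and Stc2. No called member changed its direction; Atf5 and Ppp1r15a, called under no setting, changed sign in 3 fits. The 12 members for ATF4 and its targets called lower became 12 or 13, and the 15 synthetases 10 to 17, with 0 called higher in each fit. The count over all genes moved as well. Of the 12590 genes tested, 2146 were called lower in the main fit, 1558 with the replicate block and 2458 by DESeq2. By limma on RPKM they were 3089 (0.1 added) and 3090 (1 added). With the preparation block they were 1793 of 12649. The medians ranged from −1.65 to −1.29 and from −0.93 to −0.67.

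The 1 member called higher, Nupr1, became 0 by limma on log2(RPKM + 0.1) and on log2(RPKM + 1), under the replicate block, and ranged from 0 to 1 over fits that each omitted a sample. The 1981 genes called higher became 1313 and 1281 by limma on RPKM with 0.1 and 1 added, 1309 with the replicate block and 1316 with the block for the 3 preparation numbers found at both times. The RPKM scale moved the median of all genes tested to −0.16 and −0.10, and its part in these counts was not tested. For the blocks, fewer degrees of freedom or samples remain by construction. Among the uncalled members, Pycr1, Hars and Nars passed the threshold in 4, 3 and 3 of the 17 fits.

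The replicate block left 12 synthetases called lower and ended the calls of Nupr1, Aars, Farsa and Sars. The preparation block left 10 and ended those of Aars, Farsa, Rars, Sars and Vars. Upper-quartile scaling left 13 and ended those of Farsa and Sars. Deviations of samples with the same replicate number correlated at −0.23, −0.15, −0.15 and 0.25 over genes, and 1 of the 4 1-week samples correlated best with its own number; for the 3 shared preparations the values were −0.23, 0.20 and 0.25. Genes with few reads, such as Stc2 with 13 reads in a sample, are limited by depth.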
